A study of Mus musculus with 6 samples.

Results

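The genes followed here have roles in microtubule transport, vesicle traffic and neuronal membranes and were measured in RAW264.7, a macrophage-like cell line of the mouse. There are 7: Nbea, Kif1a, Kif21a, Dclk1, Sv2b, Slc24a2 and Psd3. They were found by matching the array's sequence accessions to a RefSeq gene table, which gave 8 of the 44170 targets for these 7 genes, with 2 for Dclk1 and 1 for each of the others. Most targets carry GenBank accessions that the table does not list, so further targets of these genes may be among the 42903 targets without a name here. The study hybridised total RNA of 6 cultures to 1-colour NimbleGen mouse arrays and compared a Tim-3 knockdown with its control. Each of the 3 knockdown arrays came from a separate culture of cells that stably expressed a small interfering RNA against Tim-3 from the pRNAi-U6H1 vector and had been selected with the drug G418. Each of the 3 control arrays came from a separate culture of cells transfected with the same vector holding a control small interfering RNA. The labels speak of stable clones without giving their number, so the spread between cultures may not be the spread between independently made clones. Havcr2, the gene of Tim-3, was not analysed here, and the labels were therefore not checked against the targeted gene.

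Kinesins are motor proteins that use ATP to carry vesicles and organelles along microtubules, and neurons depend on them because synaptic cargo is made in the cell body and used at the far end of the axon. Doublecortin-type proteins stabilise the microtubule tracks, BEACH-domain proteins and Arf exchange factors sort the membranes that travel on them, and vesicle glycoproteins and calcium exchangers act at the nerve ending. Macrophages use related machinery for secretion, phagocytosis and lysosome movement, although several of these 7 genes are best known from brain.

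All 8 targets had lower intensities in the knockdown than in the control cultures. The differences ran from -1.09 for the brighter Dclk1 target to -0.69 for Psd3 on the log2 scale, with a median of -1.03 against 0.01 over all targets. The 7 genes were selected on earlier results of these same arrays, namely the knockdown minus control differences of log2 intensity. Their direction and size are therefore a description without a test and support nothing. By limma 3 of the 8 targets (Nbea, Kif21a and Psd3) were lower at an adjusted p under 0.05, as were 0.709% of all targets. The 2-fold limit of the series' design text was reached by 5 of the 8, against 1.24% of all targets. In the authors' filtered series table, which leaves out the dimmer Dclk1 target, 7 of 7 passed limma's test, beside 3.88% of its targets. Kif1a and the brighter Dclk1 target met that table's intensity limit on the control arrays only. The genes were also chosen by the same difference, so the 7 of 7 supports nothing. The groups did not overlap for any of the 8, and 13.0% of all targets had non-overlapping groups in that direction. In bulk RNA, fewer cells with a transcript and less of it per cell cannot be told apart.

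**Figure D1:**
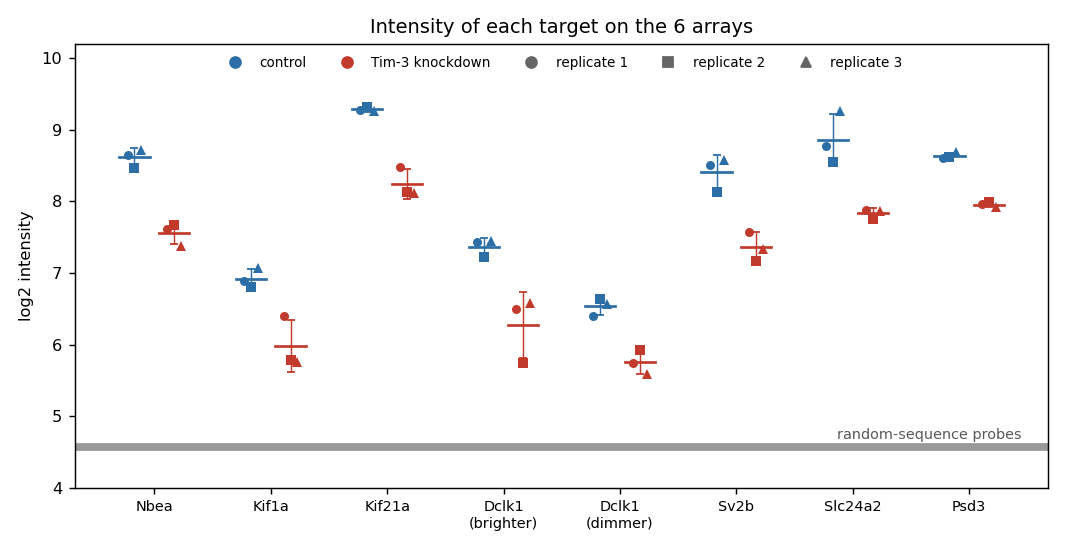
Log2 intensity (vertical axis) of the 8 targets of the 7 genes on the 3 control (blue) and 3 knockdown (red) arrays, with marker shapes for the replicates, a line at each group mean and bars of 1 SD. For every target the 3 control points lie above the 3 knockdown points, and the grey band marks the intensities of random-sequence probes, 23.1 to 24.5.

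Nbea encodes neurobeachin, a large BEACH-domain scaffold that anchors protein kinase A and helps deliver receptors to synapses. Its intensities were 196, 204 and 167 in knockdown replicates 1 to 3 and 402, 354 and 423 in control replicates 1 to 3. Every knockdown culture lay well below every control culture. On the log2 scale the means were 7.56 ± 0.15 (SD, n = 3) and 8.61 ± 0.13, a difference of -1.06 (SE 0.14), or 2.08-fold.

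Of the motors, Kif21a, a kinesin that moves toward microtubule plus ends and restrains their growth at the cell cortex, gave 359, 281 and 277 in the knockdown and 622, 641 and 613 in the control cultures. The controls were tightly grouped, at 9.29 ± 0.03 (SD, n = 3), while knockdown replicate 1 stood above its 2 partners. The difference was -1.04 (SE 0.14). Kif1a, the motor that carries synaptic vesicle precursors down the axon, was dimmer, with 84.3, 55.3 and 53.8 in the knockdown and 119, 112 and 134 in the control cultures. It differed by -0.94 (SE 0.20), again with knockdown replicate 1 the highest of its group. All 3 knockdown values of Kif1a lay under 100, the intensity that every target of the authors' series table reached on at least 3 arrays.

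Dclk1 is a kinase with doublecortin domains that bind microtubules, and it was read by targets for 2 of its RefSeq transcripts. The brighter target, NM_001111051, gave 90.2, 53.8 and 95.6 in the knockdown and 173, 150 and 175 in the control cultures. Its low point was knockdown replicate 2, which set the widest spread of the 8 targets, 0.46 (SD, n = 3), and a difference of -1.09 (SE 0.24). The dimmer target, NM_001111053, gave 53.4, 60.9 and 48.2 against 84.2, 99.96 and 95.2. Here knockdown replicate 2 was the highest of its group, so the 2 Dclk1 targets ordered the knockdown cultures differently. Their differences, -1.09 (95% interval -1.68 to -0.51) and -0.78 (-1.12 to -0.45), had overlapping intervals. The dimmer target was below 100 on all 6 arrays and is not in the authors' filtered table.

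Sv2b, a glycoprotein of synaptic vesicles that binds synaptotagmin, gave 191, 143 and 162 in the knockdown and 366, 280 and 381 in the control cultures, a difference of -1.05 (SE 0.18). Control replicate 2 was the lowest control but lay above the highest knockdown value. Slc24a2, the exchanger NCKX2 that removes calcium from neurons in return for sodium while carrying potassium along, gave 236, 217 and 234 against 440, 374 and 613. The knockdown cultures were close together at 7.84 ± 0.07 (SD, n = 3), and the control cultures spread to 0.36 because control replicate 3 was the highest. The difference was -1.02 (SE 0.20) with all arrays and -0.82 without control replicate 3.

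Psd3, also called EFA6D, loads the small GTPase Arf6 with GTP and so acts in endosomal traffic. It was matched through the synonym BC003498 and gave 249, 254 and 243 in the knockdown and 390, 395 and 412 in the control cultures. Both groups were tight, at 7.96 ± 0.03 and 8.64 ± 0.04 (SD, n = 3). Its difference, -0.69 (SE 0.10, 1.61-fold), was the smallest of the 8 and the one with the smallest standard error. The 95% interval of Psd3, -0.93 to -0.44, overlapped those of all other targets, and no difference between members was tested.

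**Figure D2:**
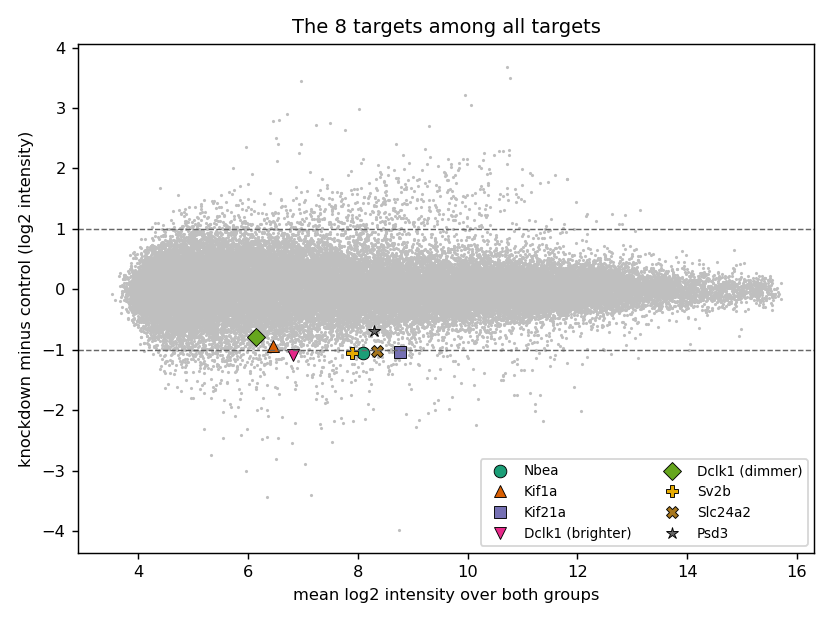
Difference between group means, knockdown minus control (vertical axis, log2 intensity), against the mean log2 intensity over both groups (horizontal axis) for all 44170 targets (grey) and the 8 targets of the 7 genes (coloured). The 8 lie between -1.09 and -0.69, within a grey cloud that reaches down to -3.98, and dashed lines mark a 2-fold difference.

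Among the arrays, control replicate 3 stood apart: its log2 intensities correlated at 0.965 to 0.972 with the other arrays across all targets, against 0.982 to 0.990 among those. Median intensities per array were 201.5 to 218.3. Replicate 3 of the control was the highest control for 6 of the 8 targets and exceeded the mean of control replicates 1 and 2 for 7 of them. The difference from that mean was -0.04 (Kif21a) to 0.60 (Slc24a2) on the log2 scale. Without that array the 8 differences were -1.06 to -0.66, and 0 of the 8 passed limma's adjusted test, for which 2 controls remained. Over all 44170 targets limma then called 109 lower, against 313 with all arrays. Leaving out any other single array also left 0 of the 8 past the test, beside 1 to 25 of all targets in the lower direction. Calls thus fell over all targets, and the 0 of 8 is no result about these genes. The differences were then between -1.25 and -0.70 except for Psd3, which stayed between -0.70 and -0.66 over all 6 omissions.

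Few genes that mark cell types could be read by name, since 1267 of the targets (2.87%) matched a symbol. Of 20 macrophage markers only Ptprc, the leukocyte antigen CD45, was matched, at intensities of 125 to 171 in the knockdown and 146 to 195 in the control cultures. Of 38 neuron markers 3 were matched, Syn1, Syn2 and Dcx, and their summed intensity was 247 to 301 in the knockdown and 179 to 336 in the control cultures, with overlapping ranges. Singly they went different ways, by -0.12 (Syn1), 0.51 (Syn2) and -0.59 (Dcx) on the log2 scale, each with overlapping groups. Dcx, the doublecortin of migrating neurons, read 13.2 to 35.1 over the 6 arrays, around the level of the random-sequence probes. None of 7 astrocyte or 8 oligodendrocyte markers was matched. Of 15 hepatocyte markers, 4 were matched, chosen with their pattern known, and summed over 5 targets to 199 on control replicate 3 and to 7790 to 9890 on the other arrays. Apoc1, an apolipoprotein gene and the brightest of them, read 60.4 there and 3092 to 4823 elsewhere. The part of the hepatocyte markers in the 7 genes' differences was not tested, while the differences without control replicate 3 are those given above. All 6 cultures are labelled as RAW264.7. Whether control replicate 3 or the other arrays are typical of that line was not tested.

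The other genes of the same families were taken from 9 lists written by gene name. The lists cover 392 genes of the RefSeq table, of which 29 had a named target, the 7 described genes among them. That left 22 targets, of which limma called 0 higher and 0 lower (adjusted p from 0.0901 to 0.969), against 0.505% and 0.709% of all targets. At an unadjusted limma p under 0.05 there were 5 of the 22, 4 lower and 1 higher, where 17.0% of all targets had such a p. The groups did not overlap for 4 in the lower direction and 1 in the higher, against 13.0% and 12.1% of all targets. The median difference of the 22 was -0.13.

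Of the kinesin list, 5 targets were read beside Kif1a and Kif21a, and none passed the test. Klc3, a kinesin light chain and the brightest of them, differed by 0.15 (95% interval -0.16 to 0.46). Kif26a, an atypical kinesin without ATP-driven movement, was singled out after its values were seen, as the listed target with non-overlapping groups in the upward direction. It gave 90.1, 88.6 and 95.9 in the knockdown and 63.4, 58.9 and 47.1 in the control cultures, the opposite order to Kif1a and Kif21a. Its difference of 0.71 (SE 0.15) had a limma adjusted p of 0.090 over all targets and 0.048 when the dimmest 25% of targets were left out. In the other settings tried the limma adjusted p was 0.071 to 0.24. The target was below 100 on all 6 arrays and is not in the authors' filtered table. Kif19a, Kif26b and Kif6 had overlapping groups.

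Nbeal1, the BEACH-domain relative of Nbea, gave 359, 269 and 286 in the knockdown and 397, 388 and 299 in the control cultures. The groups overlapped, and the difference was -0.25 (95% interval -0.67 to 0.18). Dclk3, a kinase of the Dclk1 family, differed by -0.15 (-0.45 to 0.14). Syn1, a synapsin that tethers synaptic vesicles, differed by -0.12 (-0.78 to 0.54) and by 0.12 without control replicate 3. Its list, of synaptic and secretory vesicle proteins, had a median difference of 0.18 over 4 targets. The medians of the other lists with targets were below 0. Atp2a2, the calcium pump of the endoplasmic reticulum, differed by -0.14 (-0.54 to 0.26). None of Nbeal1, Dclk3, Syn1 and Atp2a2 passed the test, which is not evidence of equal levels, and no difference between them and the 7 genes was tested.

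Of the 22 listed targets, 4 had non-overlapping groups in the lower direction, against 13.0% of all targets. All 4 were membrane fusion or Arf genes. The count is near the share over all targets and is no result about these families. The 4 were named with Kif26a for their non-overlapping groups after their values were seen, except Stx16, the brightest of its list. Stx16, a syntaxin of the trans-Golgi network, gave 3201, 3064 and 2824 in the knockdown and 4065, 3989 and 4027 in the control cultures. It differed by -0.41 (SE 0.11), with a limma adjusted p of 0.14 over all targets and 0.047 in the authors' filtered table. Vamp7, a SNARE of late endosomes and lysosomes, differed by -0.49 (SE 0.16, limma adjusted p = 0.21). Arl5c, an Arf-like GTPase, and Asap2, a GTPase-activating protein for Arfs, differed by -0.52 (SE 0.16) and -0.45 (SE 0.14), with limma adjusted p of 0.19 each. Arfgef1, an exchange factor of the Golgi and the brightest target of the Arf list, differed by -0.12 (95% interval -0.44 to 0.19). Of the Rab list only Dennd5a, a Rab exchange factor, was read, at -0.07 (-0.35 to 0.21). None of the dynein and dynactin genes was matched.

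**Figure D3:**
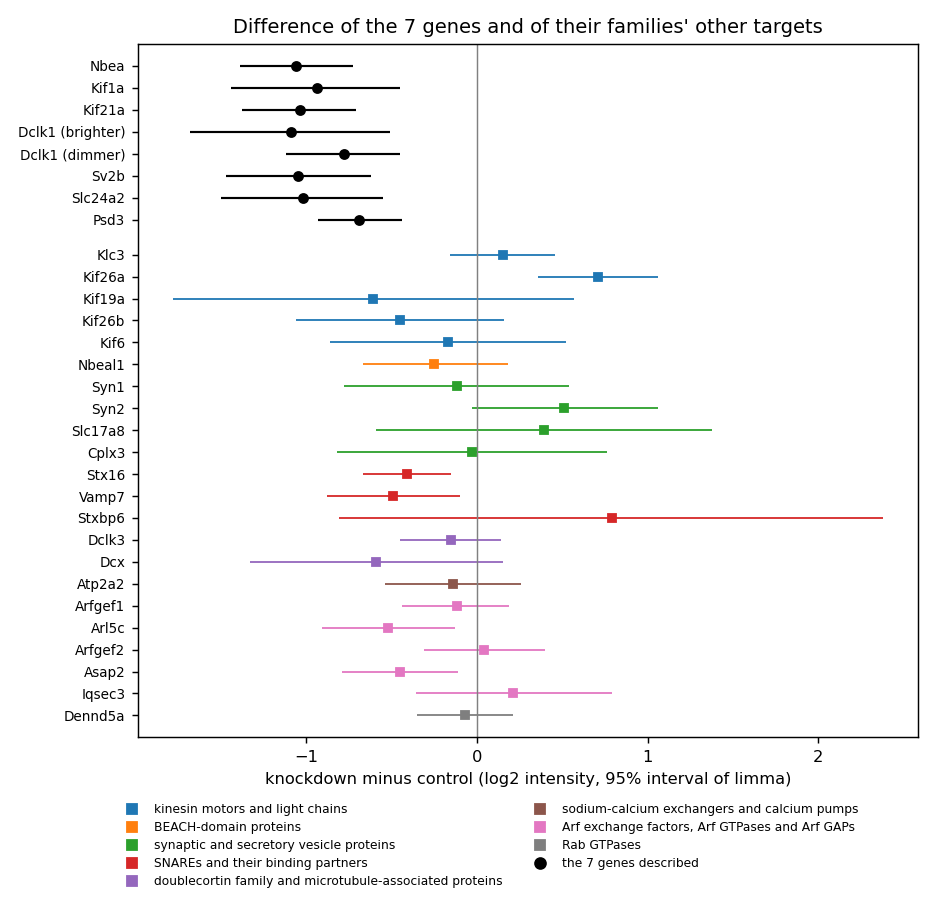
Knockdown minus control (horizontal axis, log2 intensity) with limma's 95% interval for the 8 targets of the 7 genes (black circles) and the 22 other targets of their families (squares coloured by list). The 8 black intervals lie below 0, a side fixed by how the genes were chosen, and the squares have a median of -0.13.

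Dclk1 and Nbea are neighbours. They lie on chromosome 3 with 0 protein-coding genes between them in the RefSeq table, on opposite strands and with their ends toward each other. The other 5 genes lie on chromosomes 1, 4, 7, 8 and 15, one on each. Promoter windows of GRCm38.p6 from RefSeq were matched for 6 of the 7 genes, all but Psd3, taking the start farthest upstream. The 250 bases before that start held 74.8% G and C for Nbea, 69.6% for Kif21a and 69.2% for Kif1a, against a median of 52.4% over 32851 windows. Dclk1 had 52.4%, Slc24a2 56.0% and Sv2b 48.8%. The number of CG pairs was 28, 23 and 22 for the first 3 genes and 4, 9 and 7 for the others.

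The promoters of 3 genes are printed to show this range: Nbea and Dclk1, the neighbours, and Sv2b, the one with the fewest G and C. The window of Kif21a lies inside the annotated gene and is not printed. Each runs 5′ to 3′ on the gene's strand and stops before the first base of the annotated gene. Capitals mark matches, on either strand, to the GC box (GGGCGG), the CCAAT box, the TATA box (TATAAA), and the left part (TCAGCACC) and right part (GGACAG) of RE1, the element bound by REST, a repressor of neuronal genes. No matches overlapped.
Nbea, GRCm38.p6, chr3:56183749-56183951, minus strand: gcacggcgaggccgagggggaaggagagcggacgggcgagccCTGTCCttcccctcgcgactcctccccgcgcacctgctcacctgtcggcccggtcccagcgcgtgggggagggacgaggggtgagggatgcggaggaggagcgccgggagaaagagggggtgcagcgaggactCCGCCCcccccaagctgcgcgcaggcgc
Dclk1, GRCm38.p6, chr3:55242114-55242302, plus strand: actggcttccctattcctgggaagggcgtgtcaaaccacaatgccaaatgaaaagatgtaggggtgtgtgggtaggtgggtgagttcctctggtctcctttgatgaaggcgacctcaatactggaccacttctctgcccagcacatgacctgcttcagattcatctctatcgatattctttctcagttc
Sv2b, GRCm38.p6, chr7:75309263-75309512, minus strand: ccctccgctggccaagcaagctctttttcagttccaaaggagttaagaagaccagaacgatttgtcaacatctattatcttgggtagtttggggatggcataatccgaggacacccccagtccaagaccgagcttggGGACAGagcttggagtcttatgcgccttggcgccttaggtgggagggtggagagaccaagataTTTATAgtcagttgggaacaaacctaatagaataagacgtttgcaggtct

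In the 250 bases, GGGCGG or its complement occurred 2 times for Nbea and 1 time for Kif21a, and in 32.7% of all windows. TATAAA occurred once for Sv2b and in 12.4% of windows, and CCAAT once for Dclk1 and in 33.8%. GGACAG occurred once each for Nbea, Kif21a and Sv2b and in 18.7% of windows, while TCAGCACC, present in 1.3% of windows, occurred in none of the 6. Kif1a and Slc24a2 held none of the 5 motifs. These are matches of letters in a window and say nothing of whether a factor binds there.

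Over the 6 arrays the 8 targets followed each other closely, with Pearson's r of log2 intensities between 0.74 (the 2 Dclk1 targets) and 0.99 (Nbea and Psd3) over the 28 pairs. All pairs share the difference between the groups by which the genes were chosen, so these values describe and do not test a relation. The named targets most like the mean profile of the 7 genes, among 708 whose intensity reached 100 on 3 arrays or more, were Peg13, an imprinted noncoding RNA (r = 0.988), and Bdp1, a subunit of the RNA polymerase III factor TFIIIB, and Lrrfip1, a nucleic acid-binding protein (r = 0.982 each). They differed by -0.60, -0.34 and -0.53. The closest single match was Osgin2 for Nbea, Runx1, a transcription factor of blood cells, for Kif1a, Bdp1 for Kif21a, Zfp267 for Dclk1, Nedd9, a scaffold of integrin signalling, for Sv2b, Capn3, a calpain protease, for Slc24a2, and Peg13 for Psd3, with r from 0.988 to 0.995 over 6 arrays. The differences of these matches, -0.74 (Zfp267) to -0.23 (Osgin2), were smaller in size than those of the genes they resembled, with the nearest values for Peg13 (-0.60) and Psd3 (-0.69). The 7 genes were chosen by that difference and the matches by r, which ignores size, so this comparison of sizes supports nothing. Each match is the closest of 708 targets over only 6 arrays. Groups that did not overlap in this direction occurred in 13.0% of all targets, so these r values test no relation either.

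**Figure D4:**
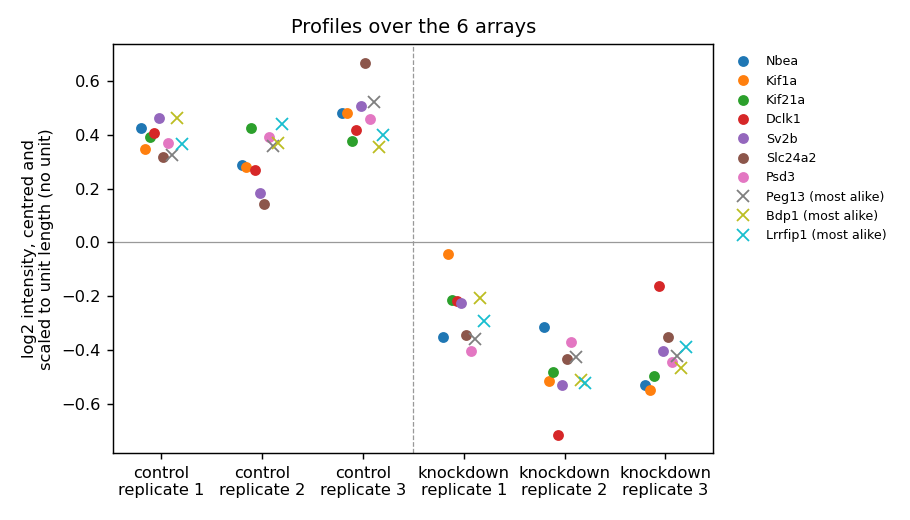
Log2 intensities over the 6 arrays, centred on each target's mean and scaled to unit length (vertical axis, no unit), for the brightest target of each of the 7 genes (circles) and the 3 named genes most like their mean (crosses). Values of all 10 targets are above 0 on the control arrays and below 0 on the knockdown arrays, and Slc24a2 is the highest on control replicate 3.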

How the data were processed

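Total RNA of 6 RAW264.7 cultures, 3 per group by the labels, was read on NimbleGen arrays. The authors deposited one table per array, with intensities on a linear scale made with RMA per the submitters' processing notes, and the number of probes per target per the file headers (another quantity, 3 for 44155 of 44170 targets). The deposited series table holds 27526 of these targets, all of which reached 100 on 3 or more arrays. RMA's settings and the probes' genome build were not given in the sources used here.

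Accessions without versions were matched to a RefSeq gene table (GRCm38.p6), used for names and neighbours. Log2 intensities of all targets were compared with limma 3.58.1 in R 4.3.3 (lmFit, eBayes, knockdown minus control, two-sided, no block, no filter, Benjamini-Hochberg over 44170 targets, adjusted p under 0.05). The arrays' number limits the precision. Members and lists were chosen with earlier results of these data known. The rule for names beside the members took listed genes past the test (there were 0), the brightest of each list and the closest matches by Pearson's r. Kif26a, Vamp7, Arl5c and Asap2 were added after their values were seen, for groups that did not overlap. Alternatives were the block, the series table, 2 normalizations, 2 filters, one target per symbol, trend and robust variance, array weights, an offset of 50, adjusted p under 0.01 and leaving out each array. Figures used matplotlib 3.10.9 in Python 3.11.15.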

Additional observations from a re-analysis of the deposited data

How the results depend on the processing

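All 125 alternative values of the 8 member differences were below 0. The block, the series table, the filters, the choice of a symbol's brightest target and the variance settings leave these differences unchanged by construction. Leaving out a single array cannot change the sign where the groups do not overlap. The side of 0 was thus largely fixed in advance and is no support. The values lay between -1.25 and -0.46, and 120 moved by less than 1 SD between replicates. The 5 that moved further were with log2(value + 50), which shrinks differences by construction, most for dim targets. Of these, Nbea and Psd3 were not dim (above 100 on all 6 arrays), and 1 SD differs between targets. Member targets past limma's test were counted across settings after the data were seen. They rose from 3 to 7 in the series table and with its equivalent filter (100 on 3 or more arrays). Kif1a and the brighter Dclk1 target met it on control arrays only. The count was 6 without the dimmest 25%, with trend and robust variance and with log2(value + 50). It was 0 at an adjusted p under 0.01, with the replicate block and without any one array. Calls over all targets moved likewise, so these counts are no result about the members.

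Over all targets limma called 223 higher and 313 lower. These became 739 and 1069 in the series table and with the equivalent filter, 485 and 696 without the dimmest 25%, 1094 and 1403 with trend and robust variance, 585 and 833 with log2(value + 50), and 30 and 30 at an adjusted p under 0.01. Without any one array there were between 0 and 117 higher and between 1 and 109 lower targets. The cause of these changes was not tested, except that a stricter limit lowers the counts by construction. With the replicate number as a block the counts were 0 and 0 (limma, with 3202 and 3340 at an unadjusted p under 0.05). Same-numbered arrays' deviations from their group means correlated at -0.026, -0.011 and 0.00, so no pairing by number was seen.

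Of 190 alternative values of the 12 named list genes, 182 kept their direction and their side of the threshold. In 5 the test was passed: by Stx16 in the series table, with its equivalent filter and with trend and robust variance, by Kif26a without the dimmest 25%, and by Arl5c with trend and robust variance. Without single arrays Syn1 ranged from -0.36 to 0.12 and Dennd5a from -0.13 to 0.00, changing sign for Syn1 without knockdown replicate 2 (0.02) and control replicate 3 (0.12).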
